A study of Arabidopsis thaliana with 3 samples.

Results

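The gibberellin oxidase genes examined here encode the enzymes that make and destroy active gibberellin in the last steps of its metabolism. They were chosen by locus with earlier results of these data known: 3 gibberellin 20-oxidase genes, 2 gibberellin 3-oxidase genes and 5 gibberellin 2-oxidase genes, which are 10 of 27444 nuclear protein-coding genes. A peak was counted for a gene when a summit, the position of highest enrichment, lay inside the gene span or up to 3000 bp outside either end. The peak lists themselves therefore chose what is described, so counts and fold enrichments are given without tests.

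AtSDR4L is the Arabidopsis counterpart of Sdr4, a rice regulator of seed dormancy. Its binding was profiled by chromatin immunoprecipitation and sequencing (ChIP-seq). Whole seedlings carrying the AtSDR4L-HA transgene were collected 4 days after imbibition. Induction with 1 µM β-estradiol gave 2 induced replicates. As the control, 1 ChIP was made from AtSDR4L-HA seedlings grown without estradiol. The same antibody against the HA tag served all 3. No label names the promoter behind the inducible transgene or the number of transgenic lines. The protein measured is the induced, tagged form, and whole seedlings pool all their cell types.

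Gibberellin is a growth hormone that promotes germination and elongation. The 20-oxidases carry out the penultimate steps of its synthesis, and the 3-oxidases finish the active hormone. The 2-oxidases inactivate the hormone or its precursors. In Arabidopsis seeds and seedlings these genes respond to light, cold and the hormone itself, and the balance between synthesis and inactivation sets the level of active gibberellin. The receptors of the GID1 family bind the hormone and bring about the destruction of DELLA proteins, which hold growth back.

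A single member, GA20OX3, had a region found in both induced replicates. The authors' peak lists gave it a fold enrichment over the uninduced control of 3.89 in replicate 1 and 3.67 in replicate 2, a mean of 3.78 ± 0.16 (SD, n = 2). For 7 further genes a peak appeared in 1 list only, at a fold of at most 2.29, 4 of them in replicate 1 and 3 in replicate 2. Over all nuclear protein-coding genes, 34.8% had a summit in replicate 1 only, 5.43% in replicate 2 only and 16.8% in both. GA20OX2 and GA3OX2 had no peak in either list. Together 8 of 10 members had a summit in at least 1 list and 2 of 10 in neither, against 57.1% and 42.9% of all nuclear protein-coding genes.

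In replicate 1, 5 of the 10 members had a summit in the window, against 51.6% of all nuclear protein-coding genes. In replicate 2, 4 of 10 did, against 22.3% of all genes. The authors' table of regions matched between the replicates held a region for 1 of 10 members, against 12.4% of all genes. That table grades each match by irreproducible discovery rate (IDR), and 1 of 10 members also had a region with an IDR of at most 0.05, against 1.05% of all genes. The members' counts in replicate 1 and in the matched table were thus near the shares over all genes. The counts in replicate 2 and at an IDR of at most 0.05 were above those shares, the last of them resting on GA20OX3 alone, and no test was made of any of them. In replicate 1 the list held 8 member peaks with 9 summits, and in replicate 2 it held 5 member peaks with 5 summits.

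**Figure D1:**
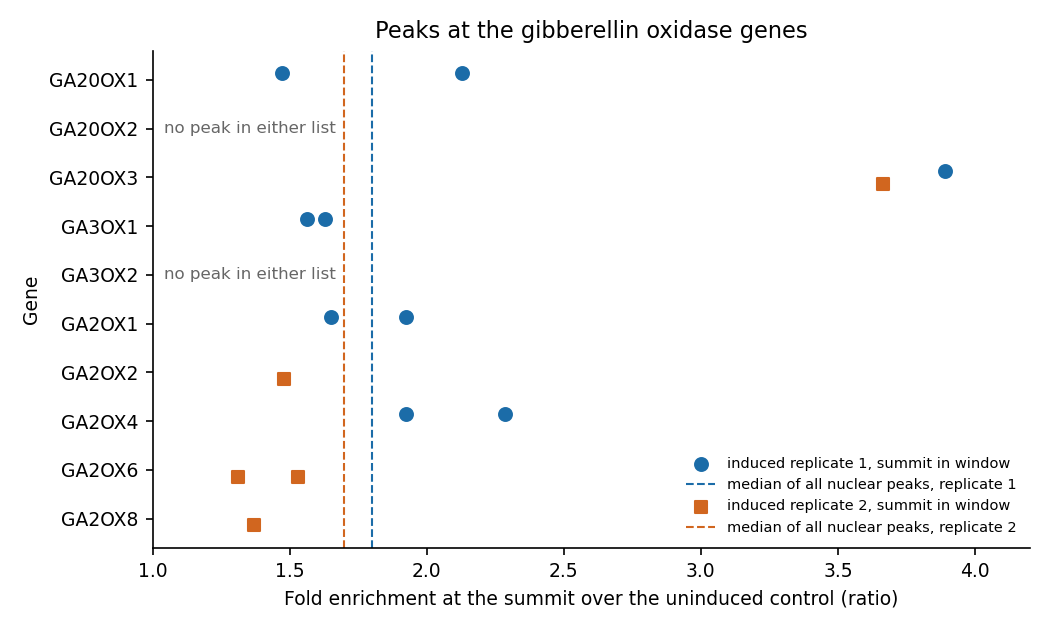
Fold enrichment over the uninduced control (ratio, horizontal axis) at each summit in the window of the 10 gibberellin oxidase genes (vertical axis), for induced replicate 1 (circles) and induced replicate 2 (squares), with the median of all nuclear peaks of each list as a dashed line. GA20OX3 stands at 3.89 and 3.67, and every other summit of these genes lies at or below 2.29.

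**Figure D2:**
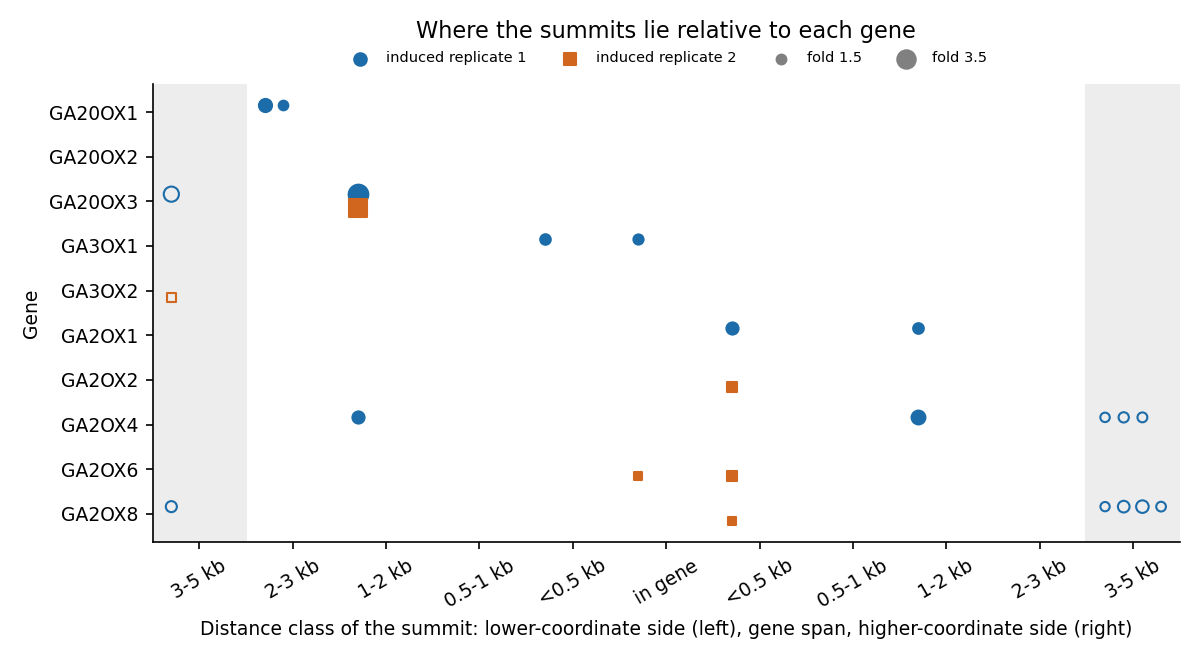
Position of each summit by distance class on the lower-coordinate side, inside the gene span or on the higher-coordinate side of each gene, with marker size growing with fold. Filled markers lie within 3000 bp of the gene, and open markers in the grey columns lie 3000 to 5000 bp away. GA20OX3 is the only row with filled markers of both replicates, in the same distance class.

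The 20-oxidase gene GA20OX3 (AT5G07200) encodes one of the main paralogs that supply precursors of active gibberellin in Arabidopsis. Its peak ran over chromosome 5: 2241417-2241994 in replicate 1, with its summit at 2241615 and a −log10 q of 53.4. In replicate 2 the peak ran over chromosome 5: 2241444-2241900, with its summit at 2241630 and a −log10 q of 49.8. Coordinates are 1-based on TAIR10. The summits lay 15 bp apart, and both fell in the intergenic stretch between ATS3, a seed-expressed gene, and GA20OX3. GA20OX3 was the nearest coding gene, 1000 to 2000 bp from the summits on their higher-coordinate side. Strand is not part of the gene table used here, so the stretch cannot be called a promoter or a downstream flank.

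Among all regions of both replicates, the GA20OX3 region ranked high by fold as well as by IDR. In replicate 1 a lower fold was listed for 98.3% of the 9811 nuclear peaks, and in replicate 2 for 99.3% of the 3423. Its global IDR in the authors' deposited table was 0.00564, rank 47 of 1776 nuclear matched regions, and its mean fold ranked 51 among them. The replicates differed little at this region. The fold in replicate 1 was 1.06 times that in replicate 2. The median ratio was 1.34 over the 182 regions with an IDR of at most 0.05 and 1.21 over all 1776. A fold in replicate 2 at least as high was found at 16 of those 182 regions, GA20OX3 included. In replicate 1 a fold at least as high was found at 74 of them, again with GA20OX3 included. A summit gap of 15 bp equalled the median gap of those 182 regions, and it compares with a median of 44 bp over all 1776. Both folds were divided by the same control library, and its part in their likeness was not tested.

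**Figure D3:**
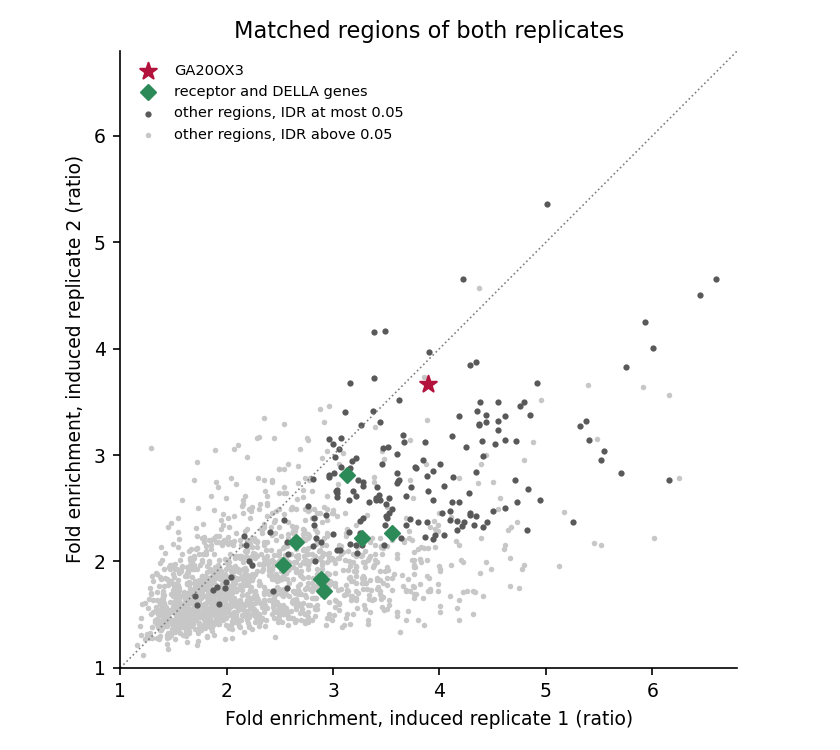
Fold enrichment (ratio) of the 1776 nuclear matched regions in induced replicate 1 (horizontal axis) and induced replicate 2 (vertical axis), with GA20OX3 as a star, regions at gibberellin receptor and DELLA genes as diamonds, and the line of equal fold dotted. GA20OX3 lies at 3.89 and 3.67, close to that line, and all 7 receptor and DELLA regions lie further below it.

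GA20OX1 (AT4G25420), the 20-oxidase best known for its part in stem elongation, had a peak in replicate 1 and none in replicate 2. It ran over chromosome 4: 12988211-12989078 with 2 summits, of fold 2.13 and 1.47 and −log10 q of 8.70 and 1.48. Both summits lay 2000 to 3000 bp from GA20OX1, and the nearest coding gene was AT4G25410. The nearest summit of replicate 2 was 7.46 kb from the stronger one. The peak would thus go to another gene under a nearest-gene rule. GA20OX2 (AT5G51810), which acts beside GA20OX1 in growth and flowering, had no summit of either replicate even 5000 bp around it. The 3 20-oxidase genes therefore ranged from a peak in both lists at GA20OX3, through a peak in 1 list at GA20OX1, to none at GA20OX2.

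GA3OX1 (AT1G15550), a 3-oxidase gene active in germinating seeds and seedlings, had 2 peaks in replicate 1 and none in replicate 2. The peak at chromosome 1: 5344112-5344598 had a fold of 1.63 and a −log10 q of 2.79, with its summit within 500 bp of the gene. The peak at chromosome 1: 5345141-5345384 had a fold of 1.56 and a −log10 q of 2.19, with its summit inside the gene span. GA3OX1 was the nearest gene to both. Both folds lay below the list's median of 1.80, and the closest summit of replicate 2 was 33.5 kb away. GA3OX2 (AT1G80340), a 3-oxidase gene that acts with GA3OX1 in germination, had no summit in the window.

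All 5 of the 2-oxidase genes had a peak in 1 list, and 0 of them had a peak in both. GA2OX1 and GA2OX4 had peaks in replicate 1 only, and GA2OX2, GA2OX6 and GA2OX8 had peaks in replicate 2 only. Over all nuclear protein-coding genes, 34.8% had a summit in the window in replicate 1 only, 5.43% in replicate 2 only and 16.8% in both. Whether the 2-oxidase genes differ from the other members in this was not tested.

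GA2OX1 (AT1G78440), a gibberellin-inactivating enzyme gene, had a peak at chromosome 1: 29513216-29513606 in replicate 1 with a fold of 1.92 and a −log10 q of 5.98. A further peak at chromosome 1: 29514246-29514548 had a fold of 1.65 and a −log10 q of 3.00. Both lay on the higher-coordinate side of the gene, the first within 500 bp and the second 1000 to 2000 bp from it. GA2OX1 was the nearest coding gene to both, and the closest summit of replicate 2 was 39.8 kb away.

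GA2OX4 (AT1G47990), a 2-oxidase gene that KNOX homeobox proteins are known to induce at the shoot apex, had a peak on each side in replicate 1. The peak at chromosome 1: 17697270-17697631 had a fold of 1.92 and a −log10 q of 5.98, and the gene nearest to it was GA2OX4. On the other side, the peak at chromosome 1: 17702599-17703044 had a fold of 2.29 and a −log10 q of 11.1, and its nearest gene was MYB112, a MYB transcription factor gene. Its fold was higher than that of 78.5% of the peaks of replicate 1, the highest standing of any member peak after GA20OX3. The closest summit of replicate 2 was 67.1 kb away.

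GA2OX2 (AT1G30040), a 2-oxidase gene known to be repressed by light in imbibed seeds, had a single peak in replicate 2 at chromosome 1: 10539963-10540316. Its fold was 1.48 and its −log10 q 2.66, with the summit just outside the gene, within 500 bp. The closest summit of replicate 1 was 38.7 kb away. GA2OX8 (AT4G21200), whose enzyme acts on precursors rather than on the active hormone, had a peak in replicate 2 at chromosome 4: 11307090-11307337 with a fold of 1.37 and a −log10 q of 1.38. That summit lay inside the span of the adjoining gene RP1, which encodes a regulatory protein of pyruvate phosphate dikinase. It had a higher fold than only 8.1% of the peaks of its list, and the closest summit of replicate 1 was 2.94 kb away.

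GA2OX6 (AT1G02400), a 2-oxidase gene that the embryo MADS-box factor AGL15 is known to activate, had 2 peaks in replicate 2 and none in replicate 1. The wider peak, 1546 bp at chromosome 1: 487568-489113, had its summit inside the gene span. Its fold was only 1.31, higher than 4.6% of the list, while its −log10 q of 51.2 was higher than 96.1% of the list. The other peak, at chromosome 1: 489596-489934 and within 500 bp of the gene, had a fold of 1.53 and a −log10 q of 24.2. Fold and q therefore ranked this gene in opposite ways. Among the 227 peaks of replicate 2 with a fold within 5% of that of the wider peak, 0.4% had a stronger q. By q, the wider GA2OX6 peak stood beside GA20OX3, with a −log10 q of 51.2 against 49.8 in the same replicate. By fold they were apart, at 1.31 for GA2OX6 and 3.67 for GA20OX3. The nearest summit of replicate 1 was 9.24 kb from the GA2OX6 peaks. The cause of the strong q at a low fold was not tested.

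**Figure D4:**
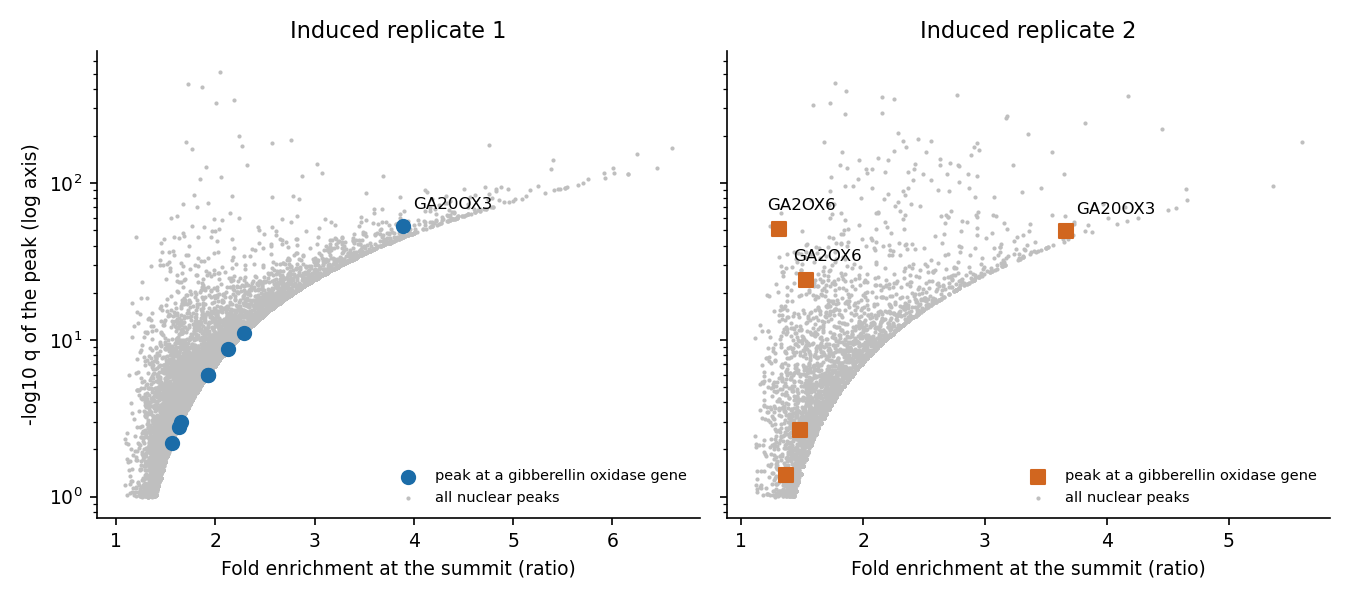
Fold enrichment at the summit (ratio, horizontal axis) and −log10 q (log axis, vertical) of each nuclear peak in induced replicate 1 and induced replicate 2, with the strongest summits of peaks at gibberellin oxidase genes as large coloured markers. GA20OX3 lies at high fold in both panels, while the GA2OX6 peaks of replicate 2 have a −log10 q of 51.2 and 24.2 at folds of 1.31 and 1.53.

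Of the 13 member peaks, 2 were overlapped by a peak of the other replicate, both at GA20OX3, and 11 were not. Member peaks overlapped in 1 of 8 cases in replicate 1 and 1 of 5 in replicate 2, against 18.2% and 53% of all nuclear peaks of those lists. The unshared member peaks of replicate 1 had folds of 1.56 to 2.29 at their strongest summits. The list held 5301 nuclear peaks in that range, of which 13% were overlapped in replicate 2. The unshared member peaks of replicate 2 had folds of 1.31 to 1.53, a range that held 811 peaks, of which 40.2% were overlapped in replicate 1. At or above the fold of the GA20OX3 peak, 87.3% of 165 peaks in replicate 1 and 75% of 24 peaks in replicate 2 were overlapped, GA20OX3 included. A region missing from 1 list did not pass its threshold, a q of about 0.1, and its fold there is unknown. In replicate 1 all 7 member peaks other than GA20OX3 had a pair of fold and q values that 51 or more summits of the list shared, their own included. The pair 1.92 and 5.98 stood at both GA2OX1 and GA2OX4, for example. Such ties covered 58.1% of the summits of that list. How much information small differences in fold between weak member peaks carry was not tested.

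By position, 2 of the 14 member summits lay inside the span of the member, 5 within 500 bp of it, 0 between 500 and 1000 bp, 5 between 1000 and 2000 bp and 2 between 2000 and 3000 bp. The member was the nearest coding gene to the strongest summit of 10 of the 13 peaks. The exceptions were the peaks assigned above to AT4G25410, MYB112 and RP1. The summits closest to the outer edge of the 3000 bp window were those at GA20OX1, 2000 to 3000 bp from the gene. Just outside the window, 3000 to 5000 bp away, replicate 1 had a peak near GA20OX3 of fold 2.61, nearest to ATS3. The same replicate had peaks of fold 1.45 and 1.58 at MYB112 beside GA2OX4. On the lower-coordinate side of GA2OX8 it had a peak of fold 1.72, nearest to AT4G21192. On the higher-coordinate side its peaks had folds of 1.83 and 2.01, and their strongest summits were nearest to AT4G21215. Replicate 2 had a peak of fold 1.37 on the GA3OX2 side nearest to AT1G80320, with a −log10 q of 1.00, at the limit of the list. That peak lay 1000 to 2000 bp from another oxidase gene of the pathway and is counted for it below.

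The remaining genes of the gibberellin pathway comprised 29 loci, among them the early enzymes, further oxidases, other inactivating enzymes, receptors, DELLA proteins and their modifiers. Of these, 17 had a summit in the window in replicate 1, 8 in replicate 2, 5 in the matched table and 2 at an IDR of at most 0.05. These are 58.6%, 27.6%, 17.2% and 6.9% of the 29 genes, against 51.6%, 22.3%, 12.4% and 1.05% of all nuclear protein-coding genes, so the counts in the separate lists and the matched table were near the shares over all genes. None of the 8 further oxidase genes, the 5 early biosynthesis genes and the 4 other inactivation genes was in the matched table. The matched regions lay at 2 of 3 receptor genes and 3 of 5 DELLA genes. Over all nuclear protein-coding genes 12.4% were in that table. Each class holds few genes, and the classes were not tested against each other.

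RGL2, the DELLA gene best known for restraining germination, had a region at chromosome 3: 822424-822913 with folds of 3.13 in replicate 1 and 2.81 in replicate 2 and, per the authors' deposited table, an IDR of 0.0318. Its nearest gene was AT3G03460. GID1B, a receptor gene, had 3 matched regions with IDR values of 0.0273, 0.0565 and 0.287, of which the one with the lowest IDR had folds of 3.27 and 2.22. GAI (2.65 and 2.18), RGA (2.53 and 1.97) and GID1A (2.88 and 1.84) had IDR values of 0.113, 0.0995 and 0.188, and the nearest gene to the GID1A region was AT3G05110. GA20OX3, with a mean fold of 3.78 ± 0.16, was above the highest of these regions. Those were the RGL2 region, with a mean of 2.97 ± 0.226, and the GID1B region with an IDR of 0.0565, with a mean of 2.91 ± 0.912 (SD, n = 2 each). The difference is given as a description, since GA20OX3 was chosen with its value known.

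**Figure D5:**
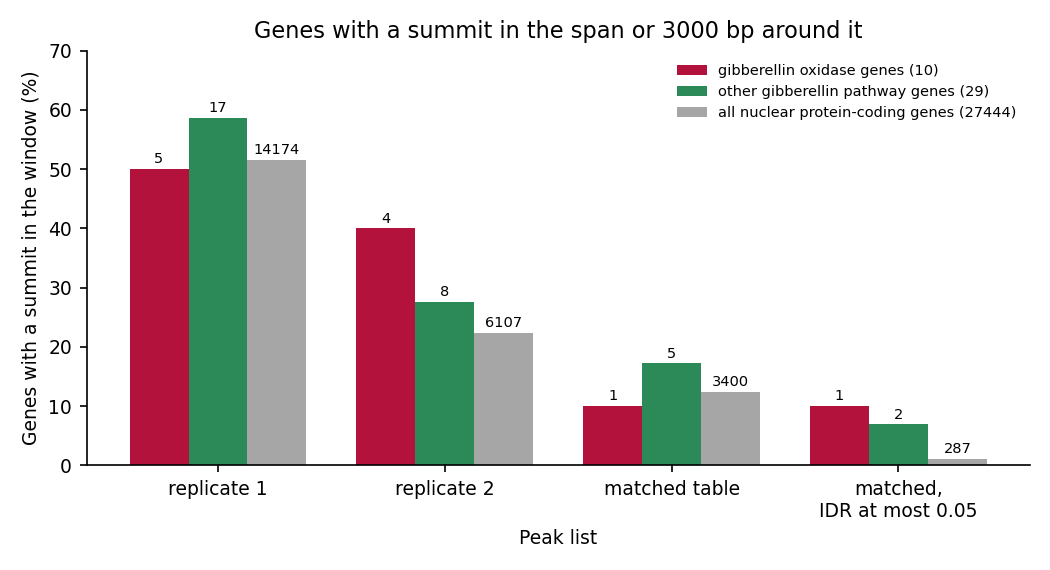
Share of genes (%, vertical axis) with a summit in the gene span or 3000 bp around it in each peak list (horizontal axis), for the 10 gibberellin oxidase genes, the 29 other gibberellin pathway genes and all 27444 nuclear protein-coding genes, with the number of genes on each bar. In replicate 1 the shares are 50%, 58.6% and 51.6%, and at an IDR of at most 0.05 they rest on 1, 2 and 287 genes.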

How the data were processed

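The authors' deposited narrowPeak lists, 1 per induced replicate, were called with MACS2 2.2.7.1 against the single uninduced control, per the series' design text. Bowtie2 2.3.5.1, SAMtools 1.7, bcl2fastq 2.20 and TAIR10 are named in the submitters' processing notes. For each deposited peak the caller's score, its fold ratio over the control and its −log10 p-value and q-value are listed. The deposited table of matched regions holds −log10 IDR values and scaled scores in the IDR program's standard layout. No label gives that program's version or settings. The lists hold no read counts, so depth is unknown and no counting interval can be given.

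Rows with equal start and end were taken as summits of 1 peak, and a gene was given every summit in its span or 3000 bp around it. For shares over a list, each peak was ranked by its summit of highest q. Folds of matched regions were read from each replicate's own list by an overlap of at least 1 bp, because the columns of the matched table have no names. Organelle peaks were left out. Genes came from a RefSeq table of assembly TAIR10.1, used for names, neighbours and the gene spans that decided which summits were counted. Distances are given as classes. All 10 members and 29 pathway genes were found by locus tag. The named genes were all members, the nearest genes of their peaks, and the pathway genes with a matched region. The members and lists were chosen with earlier results of these data known. Alternatives changed the window, the gene assignment, the q and IDR limits and the replicates used. The planned search for promoter motifs was not run because no sequence was used here. The window rule was tested on simulated data. Python 3.11.15, pandas 2.3.3, numpy 2.4.6 and matplotlib 3.10.9 were used.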

Additional observations from a re-analysis of the deposited data

How the results depend on the processing

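The number of members with a peak depended on the window and on the q limit. Shares over all genes are given for the window of 3000 bp only. The changes below therefore cannot be set against the share of all genes under the same setting. In replicate 1 it was 5 as reported and 2 with a window of 1000 bp plus the gene body, with the window cut to 1000 bp beyond and 200 bp within each gene end, or at a −log10 q of at least 10. In replicate 2 it was 4 as reported and 2 at a −log10 q of at least 5 or 10. The member with a matched region, and with an IDR of at most 0.05, was GA20OX3, and both counts fell to 0 in the 2 windows of 1000 bp, since its summits lie farther from the gene. Leaving out a replicate, which leaves 1 list in place of the match, gave 4 to 5 members for both counts. The fold of GA20OX3, an alternative that was not planned beforehand, was 3.67 without replicate 1 and 3.89 without replicate 2. For the other pathway genes, an alternative chosen after seeing the data, the 5 genes with a matched region became 2 in both windows of 1000 bp, 8 at 5000 bp and 3 by nearest gene. The other 24 of 41 alternative values stayed within 1.5 times the reported count or 1 SD, among them IDR limits of 0.01 and 0.1 and a reciprocal overlap of 50%, each with 1 member. The 24 include the 2 folds of GA20OX3, which could not fall outside 1 SD, since with n = 2 each value lies within 1 SD of their mean. Taking the strongest summit only was not run for matched regions, which have 1 summit each. No paired analysis was possible because the single control is shared and the counts come from no test. Depth is unknown. A gene missing from a list had no summit that passed its threshold, and its enrichment there is unknown.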

Other observations

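Beyond the oxidase genes, SEC, which encodes an O-GlcNAc transferase that modifies DELLA proteins, had the widest nuclear peak of replicate 2. It was singled out after its values were seen. The peak ran over chromosome 3: 1113490-1119496, which is 6007 bp, with 12 summits whose folds ranged from 1.34 to 3.16. The first of them lay within 500 bp outside the gene and the others inside its span, and replicate 1 had no overlapping peak. GA2OX7, which like GA2OX8 encodes an enzyme that acts on precursors, had a peak in replicate 1 only at chromosome 1: 18886388-18886724, with a fold of 2.44 and a −log10 q of 13.7. It was also singled out after its values were seen.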
